A study of Mus musculus with 16 samples.

Results

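The nuclear-encoded subunits of the mitochondrial respiratory chain were examined in whole inner ears of newborn mice with and without the nuclear receptor COUP-TFI. The members are the probe sets of the Affymetrix MG-U74Av2 chip whose only gene symbol in the platform annotation begins with Nduf, Uqcr, Atp5 or one of Cox4 to Cox8, or is that of a succinate dehydrogenase subunit (Sdha to Sdhd) or of cytochrome c (Cycs). The isoforms of cytochrome c oxidase made in heart and skeletal muscle (Cox6a2, Cox7a1 and Cox8b) were left out by this rule and are counted separately. The rule uses no measured value. It gave 95 probe sets of 69 genes, out of 12422 non-control probe sets and 8251 genes with a single symbol. Complex I has 38 probe sets of 29 genes, and 4 further probe sets belong to Ndufaf1 and Ndufaf4, which help to assemble complex I. Complex II has 4 probe sets of 4 genes, complex III 7 of 7, cytochrome c 1, complex IV 19 of 12 and complex V 22 of 14. The genes lie on 19 chromosomes. Several probe sets exist for 19 of the genes, and 35 of the 95 probe sets carry a suffix for sequence that may be shared with other transcripts.

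RNA came from whole inner ears at P0 (postnatal day 0) of the strain 129SvEv, from wild-type mice and from COUP-TFI-/- mice, which lack the receptor encoded by Nr2f1. The 8 chips, 4 per genotype, were hybridized on separate occasions in sets named A and B. A set used 1 RNA pool of each genotype on 2 chips (A1 and A2, or B1 and B2). There are thus 2 RNA pools per genotype, and duplicate chips show the spread of the array and not that between animals. How many ears entered a pool is not given in the sources used here. Each chip was deposited with a GCRMA value, on the log2 scale, and a dChip intensity, on a linear scale, so the pair of values is not independent. Differences are given on the log2 scale as COUP-TFI-/- minus wild-type. Nr2f1 itself was lower by 3.37 ± 0.11 (SE, n = 2 pools per genotype) in COUP-TFI-/- with GCRMA (limma adjusted p = 5.9e-11) and by 3.47 ± 0.10 with dChip (limma adjusted p = 0.00146). The 17 probe sets of inner ear markers ranged widely in signal. That of Oc90, the main protein of the otoconia, was brighter than 99.2% of all probe sets, and those of Tecta, Otog and Tectb, proteins of the acellular membranes over the hair cells, were brighter than 83.5%, 82.2% and 78.9%. At the other end, Calb1 was brighter than 38.5%, the probe sets of Atp1b2 than 37.7% and 43.6%, and those of Gjb6, a gap junction protein, than 0.4%, 32.5% and 55.5%.

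The respiratory chain passes electrons from fuel molecules to oxygen across the inner mitochondrial membrane. Complex I takes them from NADH and complex II from succinate, ubiquinone carries them to complex III, cytochrome c carries them to complex IV, and complex IV reduces oxygen. Complexes I, III and IV pump protons, and complex V, the ATP synthase, uses the proton gradient to make ATP. Muscle is rich in these complexes, and brown fat in complexes I to IV. In the inner ear the stria vascularis and the hair cells are known for dense mitochondria. Nuclear respiratory factor 1 (NRF-1), the ETS factor GABP, YY1 and the estrogen-related receptors (ERR) are known activators of the nuclear genes of the chain. COUP-TFI binds DNA at repeats of the half-site AGGTCA.

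Promoters of the member genes were read in the RefSeq table (build GRCm38.p6), which holds 250 bases before and 50 after each start, for 57 of the 69 genes. The NRF-1 core GCGCATGC was found in 11 of them (19.3%) and in 3.05% of all 27025 genes of the table. The ETS motif CCGGAAG was in 16 (28.1%, against 9.93%), the YY1 motif AAGATGGC in 8 (14%, against 3.19%) and the ERR motif TCAAGGTCA in 1 (1.75%, against 0.466%). The half-site AGGTCA, which the ERR motif contains, was in 11 genes (19.3%, against 18.1% of all). An exact direct repeat of it with 1 base between was in 0 (against 0.0481% of all). The paper reports that COUP-TFs also bind other spacings and inverted or everted repeats, which were not searched here. At so low a share of all genes, the 0 does not show that these promoters lack COUP-TFI sites. Both strands were searched. The 100 bases upstream of the start are printed for 6 members, 1 or more from complexes II, III, IV and V and cytochrome c. All 6 hold a match in that stretch, and most member promoters do not. Those of Atp5e, Atp5o, Ndufv3, Atp5g1 and Ndufb8, named in the results below, have no NRF-1, ETS, YY1 or ERR match there. Capitals mark NRF-1, ETS and YY1 matches, on either strand.
Cycs promoter, chr6:50566570-50566669, minus strand: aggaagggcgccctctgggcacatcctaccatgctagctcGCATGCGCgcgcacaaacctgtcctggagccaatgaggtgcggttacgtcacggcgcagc
Atp5g2 promoter, chr15:102671048-102671147, minus strand: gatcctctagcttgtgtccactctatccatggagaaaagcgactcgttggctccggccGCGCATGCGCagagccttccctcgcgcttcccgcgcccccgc
Uqcr11 promoter, chr10:80406822-80406921, minus strand: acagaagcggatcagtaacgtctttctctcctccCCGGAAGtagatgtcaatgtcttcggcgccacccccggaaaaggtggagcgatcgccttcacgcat
Sdhd promoter, chr9:50603850-50603949, minus strand: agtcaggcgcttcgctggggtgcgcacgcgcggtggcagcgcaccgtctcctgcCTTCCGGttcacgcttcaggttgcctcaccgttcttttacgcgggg
Cox6a1 promoter, chr5:115348959-115349058, minus strand: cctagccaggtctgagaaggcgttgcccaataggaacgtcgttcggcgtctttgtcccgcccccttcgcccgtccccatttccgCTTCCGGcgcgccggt
Atp5j promoter, chr16:84834977-84835076, minus strand: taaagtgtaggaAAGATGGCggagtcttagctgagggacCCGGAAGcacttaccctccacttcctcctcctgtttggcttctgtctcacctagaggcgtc
The capitals in Cycs are an NRF-1 core and those in Atp5g2 a core on each strand, overlapping, those in Uqcr11, Sdhd and Cox6a1 are ETS motifs, and Atp5j has a YY1 motif and an ETS motif in 1 of its 2 promoters in the table. A match describes the letters only, and binding was not measured on these chips.

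Over both sets, no member passed the genotype test in either normalization. With limma on the 4 pool means, with the set as a block and p-values adjusted over all probe sets, 0 of the 95 members had an adjusted p under 0.05 with GCRMA, where 0.105% of all probe sets did. With dChip it was also 0, against 0.00805%. The lowest adjusted p of a member was 0.752 with GCRMA and 1.0 with dChip. At an unadjusted p under 0.05 there were 2 members with GCRMA (4.58% of all probe sets) and 1 with dChip (2.13%), all lower in COUP-TFI-/-. The SE of a member's difference had a median of 0.098 with GCRMA and 0.11 with dChip. The 95% intervals of the members reached from -0.54 to 0.43 with GCRMA and from -0.99 to 0.49 with dChip. These are the outermost bounds over all members, and not those of each member. A missed threshold does not show that a member's difference is 0.

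The members with an unadjusted p under 0.05 were 161660_r_at of Ndufb6 and 100550_f_at of Cox6c, both small accessory subunits, the first of complex I and the second of complex IV. Ndufb6 161660_r_at had GCRMA values of 3.95, 3.73, 3.35 and 3.47 on the wild-type chips A1, A2, B1 and B2, and of 3.26, 3.40, 3.27 and 3.33 on the COUP-TFI-/- chips. In each set both COUP-TFI-/- chips lay below both wild-type chips, but the probe set was brighter than only 1.6% of all probe sets. The difference was -0.31 ± 0.11 (SE, limma adjusted p = 0.752) with GCRMA and -0.73 ± 0.11 with dChip (limma adjusted p = 1.0). The bright probe set of Ndufb6, 92615_at, gave -0.15 ± 0.10 and -0.19 ± 0.11, and its COUP-TFI-/- chips too lay below the wild-type chips of their set in both normalizations.

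Cox6c 100550_f_at had 11.13, 11.02, 11.13 and 11.07 in wild-type and 11.04, 10.76, 10.80 and 10.75 in COUP-TFI-/-. The groups overlapped in set A and were separate in set B. Its GCRMA difference was -0.25 ± 0.10 (limma adjusted p = 0.909) and its dChip difference -0.07 ± 0.10. The other probe sets of Cox6c gave GCRMA differences of 0.06 ± 0.10 (100551_r_at) and -0.20 ± 0.10 (162319_i_at). The direction thus depended on the probe set with GCRMA, where the positive value was smaller than its SE. With dChip the probe sets of Cox6c did not differ in sign.

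The sets differed in how the chain as a whole stood between the genotypes. In set A the median difference of the 95 members was -0.072 with GCRMA and -0.095 with dChip, while the medians of all probe sets were 0.0072 and 0.0038. In set B the median of the members was 0.042 and 0.065, and that of all probe sets -0.0014 and -0.016. Members were lower in COUP-TFI-/- in set A for 74 of 95 probe sets with GCRMA (77.9%, against 46.9% of all probe sets) and for 76 with dChip (80%, against 48.7%). In set B, 58 and 68 members were higher in COUP-TFI-/-. The members lower in set B were 38.9% with GCRMA and 28.4% with dChip, against 50.3% and 52.9% of all probe sets. Lower in set A and higher in set B were 53 members with GCRMA (55.8%, against 25.5% of all) and 58 with dChip (61.1%, against 26% of all), and 44 in both normalizations. By the median over the probe sets of a gene, 58 of the 69 genes were lower in set A and 42 higher in set B with GCRMA. With dChip these counts were 59 and 53. Each set holds 1 pool per genotype, so these counts compare single pools, and members share the chips and are not replicates.

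**Figure D1:**
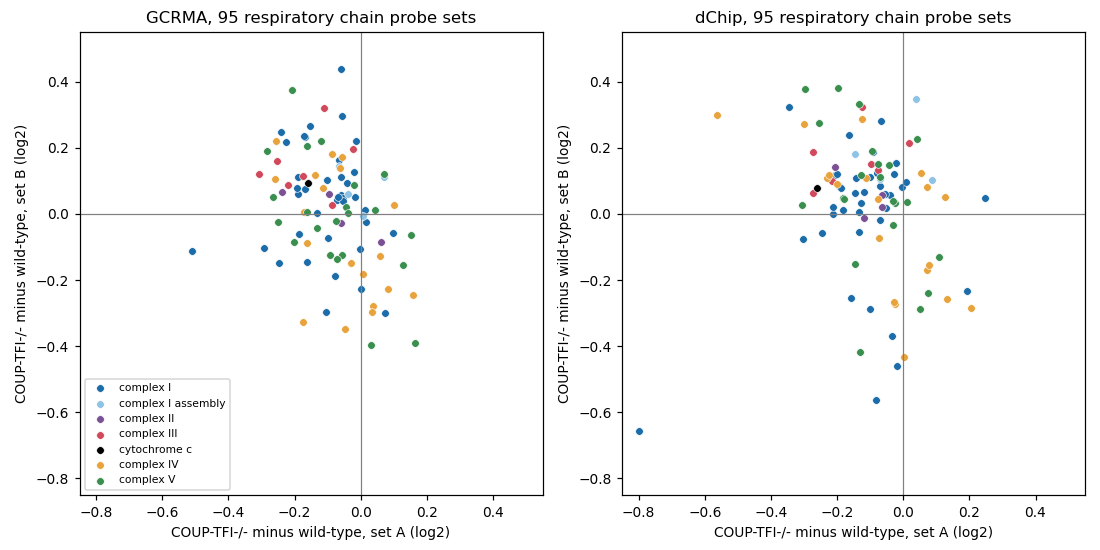
Difference between COUP-TFI-/- and wild-type (log2) of each of the 95 respiratory chain probe sets, set A on the horizontal and set B on the vertical axis, coloured by complex, for GCRMA (left) and dChip (right). Most points lie at the upper left, lower in set A and higher in set B: 53 with GCRMA and 58 with dChip. The point at the far left, Ndufb6 161660_r_at, was lower in both sets.

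By chip, both COUP-TFI-/- chips of set A lay below both wild-type chips for 42 members with GCRMA, where 18.2% of all probe sets did so, and for 46 with dChip (19.1%). In set B both COUP-TFI-/- chips lay above both wild-type chips for 26 members with GCRMA (24.1% of all) and 36 with dChip (24.8%). In set A the members' shares, 44.2% with GCRMA and 48.4% with dChip, stood over the background in both normalizations. In set B the share of 27.4% with GCRMA was close to the background, and that of 37.9% with dChip was over it. In the opposite direction, both COUP-TFI-/- chips lay below in set B for 21 members with GCRMA (22.1%) and 19 with dChip (20%). Both lay above in set A for 4 members with GCRMA (4.21%) and 8 with dChip (8.42%). The shares of all probe sets in these opposite directions were not counted. Below in set A and above in set B were 15 members with GCRMA (5.20% of all) and 24 with dChip (6.51%). The reverse, above in set A and below in set B, held for 3 members with GCRMA (6.05% of all) and 4 with dChip (6.92%). The median deviation of the members from their 8-chip mean (GCRMA) was -0.0063 and 0.031 on the wild-type chips of set A and 0.021 and 0.011 on those of set B. It was -0.056 and -0.11 on the COUP-TFI-/- chips of set A and 0.023 and 0.055 on those of set B, so that the COUP-TFI-/- chips of set A were the lowest of the 8. Without the COUP-TFI-/- chip A1 the GCRMA median of set A was -0.14, and without the wild-type chip B2 or the COUP-TFI-/- chip B2 that of set B was 0.011.

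**Figure D2:**
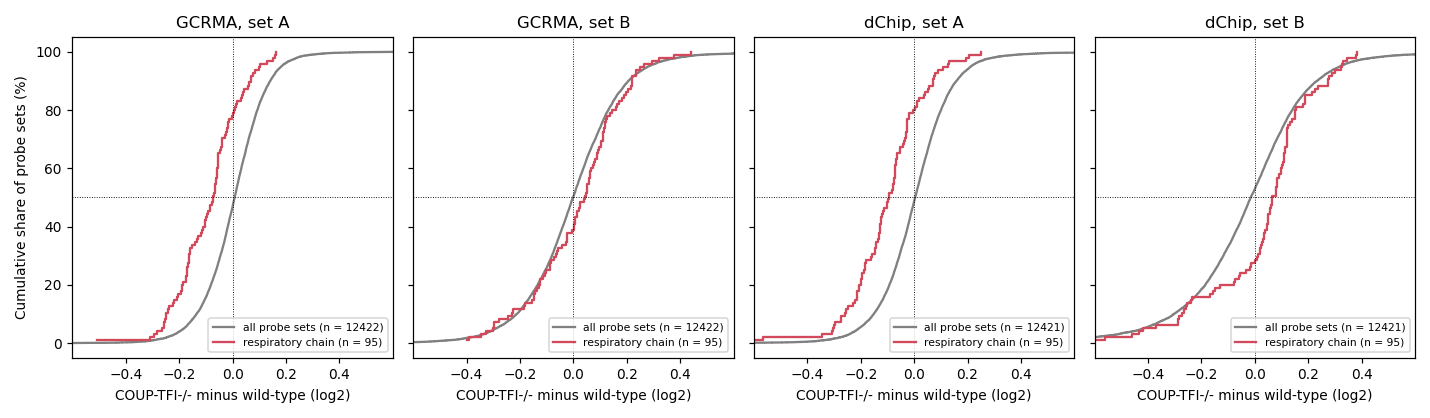
Cumulative share (%) of probe sets against the difference between COUP-TFI-/- and wild-type (log2), for the 95 respiratory chain probe sets (red) and all tested probe sets (grey), by normalization and set. The red curve lies left of the grey one in set A, with medians of -0.072 (GCRMA) and -0.095 (dChip). In set B it lies below the grey curve at 0, with 38.9% of members against 50.3% of all probe sets lower in COUP-TFI-/- with GCRMA.

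The pattern differed with the brightness of the probe set, more so with GCRMA than with dChip. Of the 63 members above the median GCRMA level of all probe sets, 58 were lower in set A (92.1%) and 47 higher in set B, with medians of -0.12 and 0.061. Among all probe sets above that level, 52.4% were lower in set A. In set B 47.7% of them were lower, against 25.4% of these members. Of the 52 members above the 80th percentile of level, 50 were lower in set A (96.2%) and 40 higher in set B. Of all probe sets above that percentile 57.6% were lower in set A. In set B 49.8% of them were lower, against 23.1% of these members. Of the 32 members at or below the median level, 16 were lower in set A and 11 higher in set B, with medians of -0.0066 and -0.087. With dChip, 56 of the 63 brighter members were lower in set A (88.9%) and 52 higher in set B, with medians of -0.12 and 0.11. Of all brighter probe sets 53.5% were lower in set A with dChip. In set B 47.6% of them were lower, against 17.5% of these members. Of the 32 dimmer members 20 were lower in set A (62.5%) and 16 higher in set B with dChip, with medians of -0.029 and 0.0093, so that the median in set B was below 0 with GCRMA only. The 48 probe sets of cytosolic ribosomal proteins, a bright family chosen for comparison after the values were seen, had GCRMA medians of -0.021 in set A against -0.019 in set B.

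Complex III, which passes electrons from ubiquinone to cytochrome c, had the most even pattern. Its 7 probe sets, of 7 genes, were all lower in COUP-TFI-/- in set A and all higher in set B with GCRMA, with medians of -0.17 and 0.12. With dChip 6 were lower in set A, all but Uqcrh at 0.019, and 7 higher in set B, with medians of -0.12 and 0.15. For Uqcrq, a small subunit, the wild-type chips A1, A2, B1 and B2 had 11.41, 11.45, 11.44 and 11.45 (GCRMA) and the COUP-TFI-/- chips 11.19, 11.17, 11.57 and 11.63. The wild-type chips were thus nearly level across the sets, while both COUP-TFI-/- chips were lower in set A and higher in set B. Its differences were -0.25 in set A against 0.16 in set B with GCRMA, and -0.27 and 0.19 with dChip.

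Uqcrb, which lies at a ubiquinone site, had 9.72, 9.76, 9.79 and 9.57 in wild-type and 9.51, 9.35, 9.84 and 9.76 in COUP-TFI-/-, with non-overlapping chips in set A and overlapping ones in set B. It was the lowest of the complex over both sets, at -0.09 ± 0.11 (SE, limma adjusted p = 1.0). Uqcr11, the highest, was at 0.10 ± 0.11 (limma adjusted p = 1.0), with -0.11 in set A against 0.32 in set B. Uqcr10 differed by -0.22 in set A against 0.089 in set B. The core proteins Uqcrc1 and Uqcrc2 differed by -0.023 and -0.17 in set A and by 0.20 and 0.11 in set B, and the hinge protein Uqcrh by -0.085 and 0.026. Cytochrome c itself (Cycs), the carrier after complex III, gave -0.16 and 0.094 with GCRMA and -0.26 and 0.080 with dChip.

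Complex I showed the same signs more often than not. Of its 38 probe sets, 33 were lower in set A and 25 higher in set B with GCRMA, and 35 and 26 with dChip, with GCRMA medians of -0.076 and 0.051. Both COUP-TFI-/- chips lay below the wild-type chips of set A for 19 of the 38 with GCRMA (18.2% of all probe sets), and 8 of these lay above them in set B (5.20% of all). In set B both lay above for 10 of the 38 with GCRMA (24.1% of all probe sets) and for 10 with dChip (24.8%), which is near the background. Both lay below in set B for 5 with GCRMA and 9 with dChip, and the share of all probe sets below there was not counted. Ndufv3, of the arm that oxidizes NADH, had 8.41, 8.53, 8.65 and 8.53 in wild-type and 8.27, 8.19, 8.67 and 9.01 in COUP-TFI-/-. Its chips were separate in both sets, at -0.24 in set A against 0.25 in set B. The core subunits of that arm, Ndufv1 and Ndufs1, differed less: Ndufv1 gave -0.054 and 0.038, and Ndufs1 -0.054 and 0.047. Ndufab1, the mitochondrial acyl carrier protein, was lower in both sets, at -0.29 and -0.10, as was Ndufs4, an accessory subunit, at -0.10 and -0.30. The assembly factors Ndufaf1 and Ndufaf4 had GCRMA differences between -0.066 and 0.070 in set A and between -0.0060 and 0.15 in set B. With dChip their 4 probe sets lay between -0.15 and 0.088 in set A and between 0.10 and 0.35 in set B. Their set B medians were 0.085 with GCRMA and 0.14 with dChip.

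Complex II oxidizes succinate and is shared with the TCA cycle. Its membrane anchor Sdhd had 10.013, 10.017, 10.009 and 10.003 in wild-type and 9.829, 9.722, 10.072 and 10.073 in COUP-TFI-/-. The chips were separate in both sets, in opposite directions, at -0.24 and 0.067, and over both sets it was the lowest of the complex at -0.09 ± 0.10 (SE, limma adjusted p = 1.0). The flavoprotein Sdha, at -0.01 ± 0.10, was the highest. The iron-sulfur subunit Sdhb gave -0.097 and 0.061, and the other anchor Sdhc -0.061 and -0.028.

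Complex IV, cytochrome c oxidase, was split. Of its 19 probe sets 12 were lower in set A and 9 higher in set B with GCRMA, with medians of -0.056 and -0.087, and with dChip 11 and 11, with medians of -0.027 and 0.051. Cox6a1, the isoform used outside muscle, had 11.72, 11.64, 11.62 and 11.48 in wild-type and 11.44, 11.40, 11.81 and 11.73 in COUP-TFI-/-, separate in both sets at -0.26 and 0.22. Cox5b (-0.14 and 0.12), Cox7a2 (-0.11 and 0.078) and Cox7b (-0.085 and 0.18) had the same signs. Other members ran the opposite way: Cox8a gave 0.035 and -0.30, and its isoform Cox8c, known from testis, gave 0.082 and -0.23 on its brighter probe set 100965_at. Cox4i1 was split within the gene, with GCRMA differences of -0.26 and 0.10 for 102124_f_at and 0.0059 and -0.18 for 93788_at.

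Complex V, the ATP synthase, had 16 of 22 probe sets lower in set A and 11 higher in set B with GCRMA, and 17 and 16 with dChip. Atp5e, the epsilon subunit of the rotor, had 9.78, 10.10, 10.01 and 9.97 in wild-type and 9.73, 9.74, 10.35 and 10.38 in COUP-TFI-/-. It was separate in both sets, at -0.21 and 0.38, and its dChip intensities were 1093, 1180, 1442 and 1352 in wild-type and 1027, 957, 1764 and 1875 in COUP-TFI-/-. Atp5o, which joins the catalytic head to the stalk, had 10.69, 10.73, 10.47 and 10.44 in wild-type and 10.49, 10.36, 10.62 and 10.67 in COUP-TFI-/-, also separate in both sets, at -0.28 and 0.19. Atp5k (-0.26 and 0.050) and Atp5j (-0.25 and -0.023) were lower in set A. Atp5mpl, a small membrane-bound subunit, was the highest of the complex over both sets, at 0.10 ± 0.10 (SE, limma adjusted p = 1.0).

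The c subunits, which form the rotating ring of complex V and are encoded by several genes, ran differently by probe set. Atp5g1 96032_at had 6.81, 6.79, 6.93 and 7.17 in wild-type and 6.73, 6.93, 6.70 and 6.60 in COUP-TFI-/-. It overlapped in set A and was lower in set B, by 0.40 on the log2 scale, and was the lowest of complex V over both sets at -0.18 ± 0.11 (limma adjusted p = 1.0). Atp5g2 92570_at had 6.45, 6.32, 6.68 and 6.82 in wild-type and 6.51, 6.59, 6.24 and 6.48 in COUP-TFI-/-, higher in set A and lower in set B, at 0.16 and -0.39. The brighter probe sets of the same genes differed little with GCRMA: Atp5g1 161324_r_at gave -0.043 and 0.021, and Atp5g2 102134_f_at -0.040 and 0.0017. With dChip the probe sets of Atp5g2 were all lower in COUP-TFI-/- in set B, between -0.24 and -0.15. Those of Atp5g1 ran from -0.29 to 0.19 in set B with dChip.

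**Figure D3:**
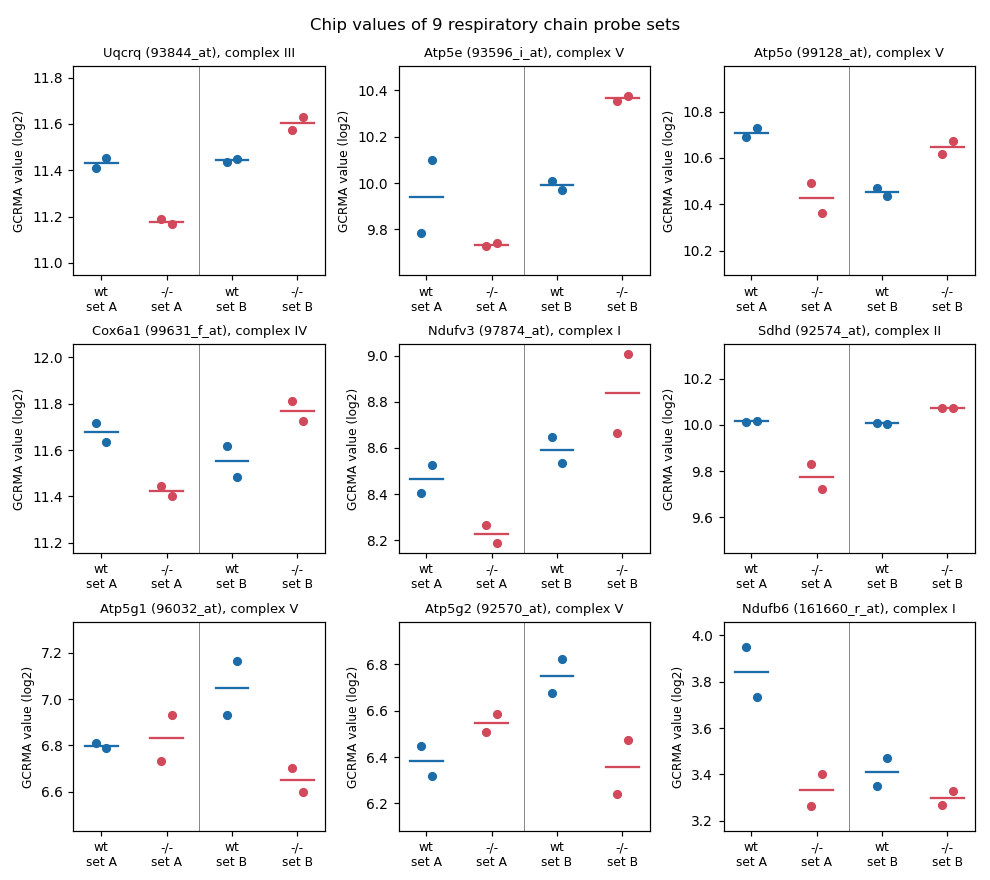
GCRMA values (log2) of 9 respiratory chain probe sets on each chip: points are chips, short lines the mean of the duplicate chips of a pool, blue wild-type (wt) and red COUP-TFI-/- (-/-). Uqcrq, Atp5e, Atp5o, Cox6a1, Ndufv3 and Sdhd are lower in COUP-TFI-/- in set A and higher in set B, Atp5g2 92570_at is the reverse, and Ndufb6 161660_r_at is lower in both. The vertical scales cover at least 0.9 units each and do not start at 0.

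Whether a genotype difference depended on the set was tested with limma on the 8 chips (genotype, set and their interaction). The error term of that fit is the spread of the 2 chips of a pool, not that between pools. No member passed an adjusted p under 0.05 with GCRMA (0.958% of all probe sets) or with dChip (0.459%). The lowest adjusted p was 0.0821 with GCRMA and 0.0615 with dChip, both for Atp5e, whose set B minus set A difference was 0.58 in both. At an unadjusted interaction p under 0.01 there were 12 members with GCRMA (6.01% of all) and 9 with dChip (8.37%). The members' share was 12.6% with GCRMA, and that of 9.47% with dChip was near the background. Of these members, 10 of 12 and 7 of 9 were lower in set A and higher in set B. The share of all probe sets at that p in this direction was not counted. Shared by both normalizations were 4: Atp5e, Uqcrq, Ndufv3 and Cox6b2 160813_r_at. Cox6b2, an isoform known from testis, ran the other way, at 0.16 and -0.25. The set B minus set A difference was positive for 67 members with GCRMA (49.2% of all probe sets) and for 73 with dChip (47.7%).

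The other large interactions with GCRMA were those of Cox6a1 (0.47, limma adjusted p = 0.0898), Atp5o (0.47, limma adjusted p = 0.0853), Ndufv3 (0.49, limma adjusted p = 0.153), Atp5g2 92570_at (-0.55, limma adjusted p = 0.0898) and Ndufa1 98118_at (0.50, limma adjusted p = 0.34). For Ndufa1 the dChip value had the opposite sign, at -0.44. The genotype contrast within each set, added after the values were seen, compares 1 pool with 1 pool, and its p-values cover the spread of duplicate chips only. It called 0 members in set A with GCRMA (0.177% of all probe sets) and 0 with dChip (0.0161%). Within set B it called 2 with GCRMA (4.43% of all) and 4 with dChip (6.75%). These were Atp5g1 96032_at and Atp5g2 92570_at with GCRMA (limma adjusted p = 0.0464 and 0.0462), and with dChip Ndufa12 (-0.56), Ndufs4 (-0.37), Cox6c 162319_i_at (-0.43) and Atp5e (0.38). All of these but Atp5e were thus lower in COUP-TFI-/-, opposite to the median of the chain there.

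Probe sets of 1 gene did not always run together. With GCRMA, 6 of the 19 genes with several probe sets had differences of opposite sign over both sets: Atp5d, Atp5l, Cox5a, Cox6c, Ndufb2 and Ndufb7. The 5 probe sets of Atp5d, the delta subunit of the rotor, ranged from -0.14 (161494_f_at) to 0.05 (161145_f_at), and the 4 of Ndufb2 from -0.11 (162473_r_at) to 0.12 (160342_r_at). Those of Atp5l, a membrane subunit, were 0.03 (93014_at) and -0.10 (99678_f_at), those of Cox5a -0.09 (160438_at) and 0.04 (161490_at), and those of Ndufb7 -0.0049 (162323_at) and 0.05 (95698_at). Between the normalizations, 81 of the 95 members had the same sign in set A against 69 in set B.

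The hybridization sets themselves differed for many members. These tests too come from the fit of the 8 chips, so the SE and p-values of set differences cover the spread of duplicate chips only, while each set holds 2 pools, 1 per genotype. The set A minus set B difference, as the mean of both genotypes, passed for 42 members with GCRMA (46.1% of all probe sets) and for 53 with dChip (50.5%), shares near the background. Higher in set A were 16 members with GCRMA (21.9% of all) and 14 with dChip (26.5%), and lower in set A 26 with GCRMA (24.2% of all) and 39 with dChip (24.0%). The lower members with dChip, 41.1% of the 95, thus exceeded the background. Passing in both normalizations were 33 members, 3 of them with opposite signs (Ndufa12, Ndufb6 92615_at and Cox7b).

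The largest set differences were in complex I. Ndufa1 98118_at, of an X-linked accessory subunit, had 4.67, 4.61, 5.79 and 6.02 in wild-type and 4.74, 4.42, 6.67 and 6.02 in COUP-TFI-/- (GCRMA). All chips of set A lay below all chips of set B, in both genotypes, at -1.51 ± 0.12 (SE over duplicate chips, limma adjusted p = 2.57e-06). Its other probe set, 98117_at, gave -0.14 ± 0.07 (limma adjusted p = 0.121). Ndufb2 160342_r_at differed by -1.02 ± 0.09 (limma adjusted p = 6.76e-06), while its brighter probe sets 95131_f_at and 95132_r_at differed by -0.01 ± 0.06 and -0.28 ± 0.06. Ndufb8, with 1 probe set, had 9.63, 9.65, 10.38 and 10.50 in wild-type and 9.53, 9.37, 10.58 and 10.52 in COUP-TFI-/-, at -0.95 ± 0.06 (limma adjusted p = 5.05e-07). In the other direction stood Sdha (0.82 ± 0.10, limma adjusted p = 7.13e-05), Cycs (0.45 ± 0.07, limma adjusted p = 0.00022) and Atp5l 99678_f_at (0.43 ± 0.06, limma adjusted p = 0.000152). The other probe set of Atp5l, 93014_at, differed by -0.25 ± 0.08 in the opposite direction. Time of hybridization and RNA pool cannot be told apart here.

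**Figure D4:**
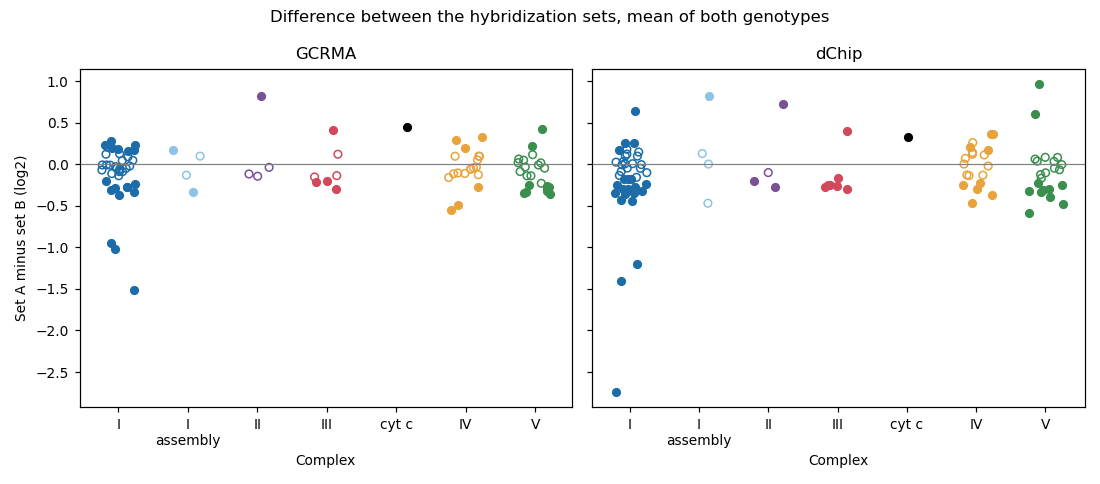
Set A minus set B (log2, mean of both genotypes) for each respiratory chain probe set, by complex, with GCRMA (left) and dChip (right); filled points had a limma adjusted p under 0.05. Most points lie within 0.5 of 0, and Ndufa1 98118_at, Ndufb2 160342_r_at and Ndufb8 stand apart below 0 in both panels, with Sdha at 0.82 the highest with GCRMA.

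Other proteins of the mitochondrion were compared by list. None of their probe sets passed the genotype test in either direction with GCRMA or dChip. The 19 probe sets of assembly factors and other chain proteins had GCRMA medians of -0.12 in set A against -0.022 in set B, with 15 lower in set A; the list holds Atp5md, which is also a member. In it Etfa, which feeds electrons from fatty acid oxidation to the chain, was at -0.29 ± 0.10 (limma adjusted p = 0.713), and Cyc1, the cytochrome of complex III, at -0.15 and 0.16 on its 2 probe sets. The 23 probe sets of the TCA cycle and pyruvate dehydrogenase had medians of -0.032 and -0.0021, and Pdk4, the kinase that shuts off pyruvate dehydrogenase, was at 0.41 ± 0.11 (limma adjusted p = 0.427). The 11 of the adenine nucleotide and phosphate carriers, porins and mitochondrial creatine kinase had medians of -0.079 and -0.11, with Vdac2 160529_r_at at -0.32 (limma adjusted p = 0.661). The 19 of the regulators of mitochondrial biogenesis had medians of 0.042 in set A and near 0 in set B, with Myc at 0.27 (limma adjusted p = 0.752) and Gabpb1 161341_f_at at -0.21 (limma adjusted p = 1.0).

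Markers of other tissues moved between the pools as well. The striated muscle list has 41 probe sets, 4 of them those of Cox6a2, Cox7a1 and Cox8b. Its GCRMA medians were -0.034 in set A against 0.48 in set B, and its dChip medians -0.034 and 0.51, so that it, like the chain, was higher in COUP-TFI-/- in set B, but was nearly level in set A. The summed linear level of the list (GCRMA) was 27040 and 27800 on the wild-type chips of set A and 27040 and 26420 on the COUP-TFI-/- chips. In set B it was 18080 and 17700 in wild-type and 28660 and 29780 in COUP-TFI-/-, a ratio of 1.63 between the pools (1.58 with dChip), the wild-type pool of set B being the lowest of the 4 pools. The same sum over the 95 members had a ratio of 0.919 in set A against 1.04 in set B (0.926 and 1.07 with dChip). The interaction, tested against the spread of duplicate chips, passed for 17 of the 41 by GCRMA (0.958% of all probe sets) and for 13 by dChip (0.459%). The genotype test passed for 2 by GCRMA, Myh8 160243_r_at (0.98, limma adjusted p = 0.00916) and Myh3 (0.80, limma adjusted p = 0.014), myosins of immature muscle. With dChip it passed for 0 of the 41, and these probe sets gave 0.95 and 0.82 (limma adjusted p = 1.0 for both). Cox6a2, the muscle partner of Cox6a1, gave -0.069 in set A against 0.94 in set B. The part of muscle in the chain's values was not tested. The authors left out genes with a significant interaction, as these would in theory hold differences from tissue contamination during dissection. They found striated muscle classes overrepresented among those genes. In whole ears, fewer cells of a type, less RNA per cell and tissue carried over in dissection cannot be told apart.

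Of the 8 brown fat probe sets, 5 were lower in COUP-TFI-/- in set A against 5 in set B, with GCRMA medians of -0.21 and -0.27. Ucp1, the uncoupling protein that lets protons bypass complex V, was called in both of its probe sets with GCRMA. Probe set 99507_at fell by 1.26 on the log2 scale (limma adjusted p = 0.000258) and 161422_f_at fell by 0.59 (limma adjusted p = 0.0208). With dChip no brown fat probe set passed, and those of Ucp1 differed by -0.95 (limma adjusted p = 0.856) and -1.43 (limma adjusted p = 1.0). Cidea (-0.32), Adipoq (-0.29) and Fabp4 (-0.27) did not pass. The rest of the list, Ppargc1a (0.14), Dio2 (0.13) and Elovl3 (0.075), was higher in COUP-TFI-/- in both sets with GCRMA and did not pass either. The summed brown fat level in COUP-TFI-/- was 0.729 of wild-type in set A against 0.71 in set B with GCRMA, that is, low in both sets, where the chain differed in sign. Neuron markers had medians of 0.016 and -0.14, cartilage 0.11 and 0.066, erythroid -0.035 and 0.011 and inner ear -0.027 and -0.085, the last with Tectb at -0.48 ± 0.10 (limma adjusted p = 0.106). None of the probe sets of these lists passed the genotype test. The part of these tissues in the chain's values was not tested.

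**Figure D5:**
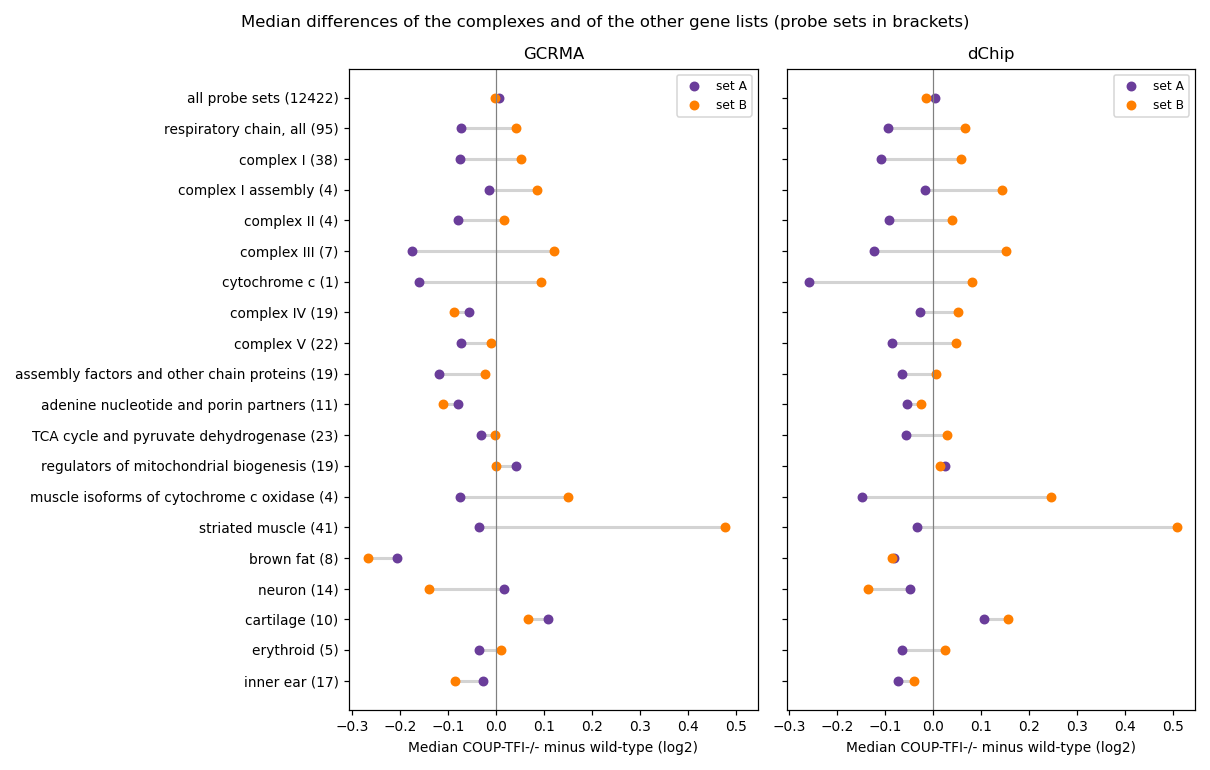
Median difference between COUP-TFI-/- and wild-type (log2) in set A (purple) and set B (orange) for all probe sets, the respiratory chain, its complexes and the other lists, with GCRMA (left) and dChip (right). Complexes I, II and III and cytochrome c lie left of 0 in set A and right of it in set B, striated muscle has the widest gap (-0.034 and 0.48 with GCRMA), and brown fat lies left of 0 in both sets.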

How the data were processed

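Gene expression was measured on 8 Affymetrix MG-U74Av2 chips. The authors normalized them with GCRMA, which gives the deposited log2 values, and with dChip, which gives deposited intensities on a linear scale; software versions are not given in the sources used here. Groups, sets and duplicates were taken from the sample titles, with the letter read as set. Of 12488 probe sets, 66 controls were left out, and dChip intensities under 1 (89 values, 0 in members) were set to 1 before log2. The median of a chip was 7.20 to 7.23 (GCRMA) and 291 to 305 (dChip). The number of pools limits the precision.

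Tests used limma 3.58.1 in R 4.3.3, tested on simulated data, 2-sided, with Benjamini-Hochberg adjustment over all probe sets. The genotype fit on pool means has 1 residual degree of freedom, to which limma's prior adds 14.3 (GCRMA) or 4.55 (dChip). The set pairs the pools by the labels: across probe sets the set difference in wild-type and COUP-TFI-/- had r = 0.752 (GCRMA) and 0.688 (dChip). Named members were the highest and lowest of each complex, those with an unadjusted p under 0.05, the 6 largest interactions, the 3 largest set differences in each direction, genes with probe sets of opposite sign and the c subunits, and in other lists up to 4 with p under 0.01 or else the 2 largest; further members named in the text were chosen after their values were seen. The members and lists were chosen with earlier results of these data known. Alternatives left out chips, dim probe sets or shared-sequence suffixes, kept 1 probe set per gene, quantile-normalized the values, raised the dChip minimum to 16, dropped the replicate block, fitted the chips or used the methods' 2-way analysis of variance.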

Additional observations from a re-analysis of the deposited data

Results flagged for a closer look

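Among the 140 groups of 4 chips formed by the 35 named probe sets, 2 held a chip far from the others. Chance flags about 1 in 20 groups of independent values. That rate does not hold here, as the chips are duplicates of pools from sets that differ, and both normalizations use the same chips. For Cox6c 162319_i_at the wild-type chip B1 was at 6.206 (GCRMA), with the nearest other wild-type chip at 6.445. For Ndufb7 95698_at the COUP-TFI-/- chip A2 was at 10.47 (GCRMA), with the nearest other at 10.68. Neither probe set passed the genotype test with or without that chip.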

How the results depend on the processing

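Of the 137 alternative values, 123 stayed near the main value, that is, a count of calls within 1.5 times of it or a median within 1 SD of its values over the 4 pairings of single chips in a set. Single members could still change side of the threshold within such a count. The genotype test called 0 members with either normalization whichever chip was left out, and 0 with no replicate block, so that dropping the pairing by set changed no call. The fit of the 8 chips, whose p-values cover the spread of duplicate chips only, called 1 with GCRMA (Ndufb6 161660_r_at). The share of all probe sets that it called was not counted. The genotype contrast within set B, chosen after seeing the data, called 2 with GCRMA (4.43% of all probe sets) and 4 with dChip (6.75%). The interaction called 3 members with GCRMA and 5 with dChip among probe sets with a mean above the median, where fewer probe sets are tested. With 1 chip left out it called 0 to 2 with GCRMA (1 without the wild-type chip A1 or the COUP-TFI-/- chip B1, 2 without the COUP-TFI-/- chip B2) and 0 with dChip. The share of all probe sets that the interaction called in these refits was not counted. The set effect fell from 42 to 25 members with GCRMA and from 53 to 32 with dChip without shared-sequence suffixes, where fewer members remain, and to 26 with GCRMA by the methods' 2-way analysis of variance (the cause was not tested). It called 31 to 42 with GCRMA and 37 to 47 with dChip when a chip was left out. The median of the members in set A ranged from -0.1385 to -0.05505 with GCRMA and from -0.1239 to -0.0783 with dChip when a chip was left out, and in set B from 0.01069 to 0.05936 and from 0.0376 to 0.1184. The GCRMA median of set B was 0.0112 without the wild-type chip B2. The number of pools, 2 per genotype, limits the precision.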
